A study of Homo sapiens with 6 samples.

Results

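The JUN and FOS family of AP-1 transcription factors has 7 human genes, JUN, JUNB, JUND, FOS, FOSB, FOSL1 and FOSL2, and all 7 were present among the 61541 genes of the deposited count table. The 7 were taken as a whole family by name, and the family was chosen from its difference between the groups compared here, since several of its genes were already known to be lower in the knockdown libraries. The differences between groups are therefore given as a description of the members, with intervals but no p-value. RNA sequencing was done on cells labelled A498, the name of a line established from a human clear cell renal carcinoma. There were 3 libraries labelled shcontrol, the control group of the short hairpin RNA (shRNA) knockdown. Another 3 were labelled shRNF26, in which an shRNA targeted the ubiquitin ligase gene RNF26. All 6 were grown in RPMI-1640 medium with fetal bovine serum, their treatment field reads transfection infection, and the time from delivery of the shRNA to harvest is not stated in the labels. The labels name no other hairpin against RNF26, so an effect of the hairpin on other transcripts cannot be told apart from an effect of losing RNF26. The labels do not say that the 3 libraries of a group came from separate cultures, so errors measure the spread between these libraries, which may be technical.

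In the shRNF26 libraries JUN was 6.64-fold lower, FOS 5.14-fold, FOSL1 4.38-fold and FOSB 2.49-fold. JUNB and JUND were lower by much less, 1.24-fold and 1.2-fold, and FOSL2 kept 98.9% of its control level. Each subfamily thus held members with large differences beside members with small ones or none that passed the test. In bulk RNA, fewer cells expressing a gene and less RNA per cell cannot be told apart.

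AP-1 is a dimer of basic leucine zipper proteins that binds short DNA elements in promoters and enhancers. JUN proteins can pair with each other or with a FOS protein, whereas FOS proteins need a JUN or another partner, and the mix of subunits sets which elements are bound and how strongly transcription is activated. FOS, FOSB, JUN and JUNB are classic immediate early genes. They are induced within minutes of growth factor or stress signals through MAP kinases and then shut off. JUND is expressed more steadily, and FOSL1 and FOSL2 respond later and last longer. In epithelial tumours FOSL1 and JUN are known for driving protease, matrix and migration genes.

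RNF26 itself had 35331, 31901 and 31928 counts in the shcontrol libraries and 1216, 1274 and 1175 in the shRNF26 libraries, so the targeted gene matched the labels. Libraries held 16682871 to 18021718 counts, and within a group the correlation between libraries across genes was 0.99481 to 0.99612 on the log2 scale. Of 20 markers of renal tubule or clear cell carcinoma, 14 lay under 1 CPM (counts scaled to library size) on average, among them PAX2, CUBN, CA9 and VCAM1, and UMOD had no count in any library, which allows up to 3 counts in each. Others of this list were present in the shcontrol libraries, EPAS1 at 170 ± 5.88 CPM, MME at 26.2 ± 0.530, PAX8 at 2.90 ± 0.357 and CA12 at 2.36 ± 0.455. All 14 squamous and basal epithelial markers were above this, with the basal keratin gene KRT5 at 582.6 ± 21.3 CPM and the basal factor gene TP63 at 172.5 ± 7.37 CPM in the shcontrol libraries (mean ± SD, n = 3), and with KRT15 at 22.9 ± 1.92, KRT14 at 4.04 ± 0.464 and IVL at 2.96 ± 0.254 CPM. Several defining markers of the labelled cell type were thus absent or near 0 in both groups, while the basal markers KRT5 and TP63 were abundant in both. The marker profile thus did not fully match the labelled cell type. The identity of the line was not tested, and the name A498 is used as the labels give it. The summed level of the squamous and basal markers ranged from 2239 to 2386 CPM in the shcontrol libraries. In the shRNF26 libraries it was 1750 to 1825 CPM. Of the 14, 6 were called lower, among them SFN, KRT17, KRT16 and KRT6B, and 2 higher (22.6% and 18.9% of all tested genes). The 2 called higher were TRIM29 (log2 fold change 0.49) and TP63 (0.17), and KRT5, the most abundant, was not called (0.10). The markers thus did not all move in 1 direction. The renal list summed to between 201.9 and 213.7 CPM and between 233.2 and 253.1 CPM, most of it EPAS1 (mean 170 and 194.3 CPM). Of its 6 tested genes, 0 were called lower and 2, MME and EPAS1, higher. Of 12 blood, endothelial and fibroblast markers, 9 lay below 1 CPM and the sums were 62.1 to 73.0 and 89.9 to 94.8 CPM, most of it COL1A1, which was called higher, with PECAM1 and CD14 not called and COL3A1 at 0. The part of these shifts in the family's differences was not tested.

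The proximal promoters of 6 members could be read from RefSeq (build GRCh38.p14), and they are shown because members that differed strongly and members that did not can be set side by side in them. Each line gives the 210 bases before the annotated start, 5′ to 3′ on the gene's strand. Capitals mark motifs searched on either strand. The cAMP response element (CRE) was searched as the palindrome TGACGTCA, together with its first 5 bases alone, called the CRE part here. A related element known from the JUN promoter was searched as TGACATCA, the GC box as GGGCGG, the CCAAT box by those letters and the TATA box as TATAAA. The CRE part lies inside the full CRE, and in JUN it shares 1 base with a GC box. On the other strand the CRE part and the GC box appear as their reverse complements.
JUN, chr1:58784048-58784257, minus strand: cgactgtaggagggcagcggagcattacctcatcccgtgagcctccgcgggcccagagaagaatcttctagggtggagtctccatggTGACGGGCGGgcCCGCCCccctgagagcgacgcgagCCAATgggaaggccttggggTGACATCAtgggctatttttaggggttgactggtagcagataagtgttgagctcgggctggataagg
JUNB, chr19:12791276-12791485, plus strand: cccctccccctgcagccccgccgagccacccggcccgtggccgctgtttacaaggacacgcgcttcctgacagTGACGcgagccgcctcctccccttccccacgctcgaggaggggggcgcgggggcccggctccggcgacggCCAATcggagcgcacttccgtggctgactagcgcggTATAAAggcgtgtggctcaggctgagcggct
JUND, chr19:18281623-18281832, minus strand: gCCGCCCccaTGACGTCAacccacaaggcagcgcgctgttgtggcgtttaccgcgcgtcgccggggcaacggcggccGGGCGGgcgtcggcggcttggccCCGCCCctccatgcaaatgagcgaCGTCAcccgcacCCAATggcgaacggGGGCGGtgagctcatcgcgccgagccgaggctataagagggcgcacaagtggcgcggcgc
FOS, chr14:75278618-75278827, plus strand: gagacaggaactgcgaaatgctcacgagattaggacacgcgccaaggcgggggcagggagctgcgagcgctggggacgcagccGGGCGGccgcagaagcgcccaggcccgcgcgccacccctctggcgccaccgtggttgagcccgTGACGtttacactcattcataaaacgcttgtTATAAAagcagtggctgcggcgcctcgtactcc
FOSB, chr19:45467786-45467995, plus strand: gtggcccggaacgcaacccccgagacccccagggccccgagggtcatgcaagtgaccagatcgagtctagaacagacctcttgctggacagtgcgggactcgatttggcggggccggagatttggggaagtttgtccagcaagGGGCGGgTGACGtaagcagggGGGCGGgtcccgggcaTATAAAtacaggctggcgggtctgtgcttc
FOSL2, chr2:28392648-28392857, plus strand: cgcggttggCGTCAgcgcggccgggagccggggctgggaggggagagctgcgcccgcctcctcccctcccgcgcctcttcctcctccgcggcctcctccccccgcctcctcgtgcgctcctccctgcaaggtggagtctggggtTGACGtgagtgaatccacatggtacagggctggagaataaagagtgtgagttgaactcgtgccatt

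All 6 promoters held the CRE part, TGACG, within 250 bases before the start, against 21.66% of the 27305 promoters in the same table. The 6 were 62.0% (JUN) to 74.8% (JUND) G or C over these bases, against a median of 58% over all promoters. The shares of promoters given here are not matched for this. In FOS it lay at -64 to -60, in FOSB at -60 to -56 and in FOSL2 at -66 to -62, counted from the first base before the start as -1. JUN held TGACATCA at -67 to -60, an element found in 2.45% of promoters, and JUND held the full CRE at -200 to -193, found in 1.77%. A TATA box stood at -33 to -28 in FOS, -30 to -25 in FOSB and -31 to -26 in JUNB, and occurred in 11.13% of promoters. GC boxes were in JUN, JUND, FOS, FOSB and FOSL2 (42.31% of promoters), in FOSL2 only upstream of the stretch printed, and CCAAT boxes in JUN, JUNB and JUND (33.04%). The AP-1 site TGACTCA and the CArG box bound by serum response factor had no match in these windows (4.16% and 1.14% of promoters). Bases further upstream than 250 and other variants of these sites were not searched, so the genes may hold such sites elsewhere. Matches are descriptions of letters and not evidence of binding. FOS and FOSL2 held the CRE part at nearly the same distance, but FOSL2 had no TATA box match. JUN, the member with the largest fall, and JUND had no TATA box match either, while JUNB, with a small fall, held a match. A TATA box match thus did not separate the members that differed strongly from the others. Whether any of these motifs bears on the differences between the groups was not tested.

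JUN (ENSG00000177606), a strong activator among the JUN proteins, had 18257, 15147 and 15254 counts in the shcontrol libraries and 2571, 2798 and 2406 in the shRNF26 libraries. Scaled to library size by the trimmed mean of M values (TMM), these were 1049, 922 and 929 CPM against 145, 152 and 140 CPM. The lowest shcontrol library was thus well above the highest shRNF26 library. The log2 fold change was -2.73 (SE 0.051, 95% interval -2.84 to -2.62), which left 15.1% of the control level and gave JUN rank 37 from the lowest among 14766 tested genes.

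JUNB (ENSG00000171223), which can restrain JUN in some settings and activate in others, had 165, 144 and 149 CPM in the shcontrol libraries and 128, 130 and 111 CPM in the shRNF26 libraries. The groups did not overlap, but their nearest libraries, shcontrol replicate 2 and shRNF26 replicate 2, were close. The log2 fold change was -0.32 (SE 0.060, 95% interval -0.44 to -0.19). JUNB shares exon sequence with HOOK2 on the opposite strand, HOOK2 rose from 49.0 ± 4.91 to 60.8 ± 1.44 CPM (edgeR adjusted p = 0.000917), and the labels do not state how the counting used strand.

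JUND (ENSG00000130522), a steadily expressed JUN gene in many tissues, had 77.1, 67.9 and 70.1 CPM against 55.9, 64.4 and 58.2 CPM. The groups again did not overlap, and the gap between the nearest libraries was smaller than the range within either group. Its log2 fold change was -0.27 (SE 0.063, 95% interval -0.40 to -0.14). With libraries scaled by total counts alone, JUNB moved to -0.22 and JUND to -0.18, and both were still called.

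FOS (ENSG00000170345), the prototype immediate early partner of JUN, was a low transcript in these cells. It had 241, 268 and 275 counts in the shcontrol libraries and 57, 57 and 48 in the shRNF26 libraries, or 13.8, 16.3 and 16.8 CPM against 3.21, 3.10 and 2.79 CPM. All 3 shcontrol libraries stood far above all 3 shRNF26 libraries. The log2 fold change was -2.36 (SE 0.13, 95% interval -2.64 to -2.08), a wider interval than that of JUN, on fewer counts.

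FOSB (ENSG00000125740), an immediate early gene whose protein is close to FOS, had 120, 126 and 136 counts against 61, 53 and 49, or 6.89, 7.67 and 8.28 CPM against 3.43, 2.88 and 2.85 CPM. The groups did not overlap. The log2 fold change was -1.32 (SE 0.16, 95% interval -1.65 to -0.98). FOSB overlaps ERCC1 on the opposite strand in the annotation, with no exon of 1 gene on an exon of the other.

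FOSL1 (ENSG00000175592), which encodes FRA1, a FOS protein without the strong activation domain of FOS, was abundant and tightly reproduced. It had 717, 701 and 707 CPM in the shcontrol libraries and 161, 160 and 163 CPM in the shRNF26 libraries. The coefficients of variation within the groups were 1.16% and 0.806%, the smallest of the 7 genes, and the groups were far apart. The log2 fold change was -2.13 (SE 0.037, 95% interval -2.21 to -2.05).

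FOSL2 (ENSG00000075426), which encodes FRA2, a close relative of FRA1, had 350, 334 and 324 CPM against 335, 336 and 325 CPM. The ranges of the groups overlapped, and FOSL2 was the member that did not pass the test. Its log2 fold change was -0.02 (SE 0.040), with a 95% interval of -0.10 to 0.07.

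**Figure D1:**
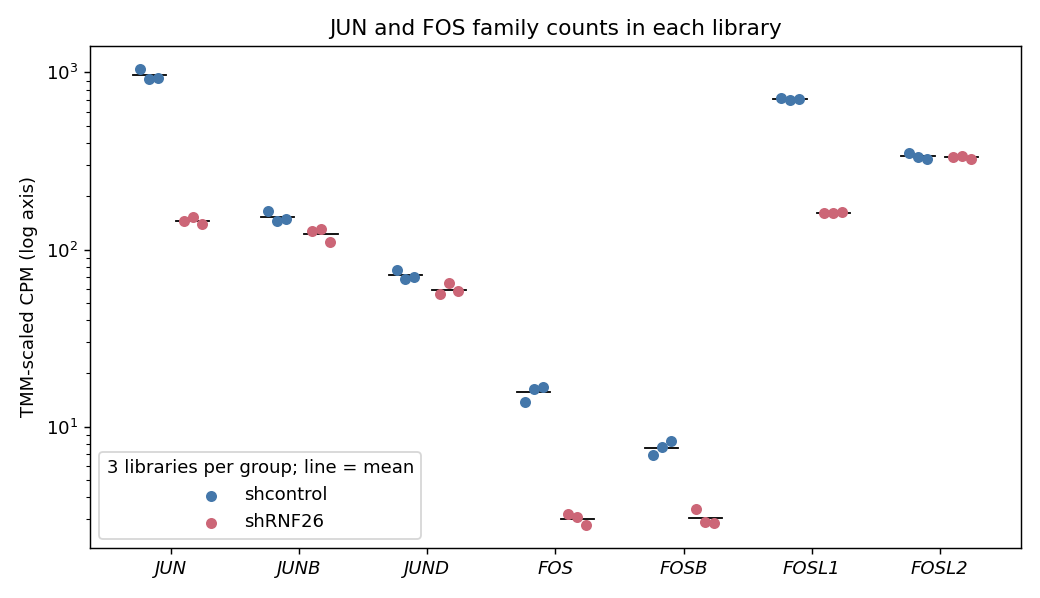
TMM-scaled CPM of the 7 family genes on a log axis, with 1 point per library (3 shcontrol in blue, 3 shRNF26 in red) and a line at each group mean. JUN and FOSL1 drop from 967 and 708 CPM to 146 and 162 CPM, FOS and FOSB drop at low levels, and the points of FOSL2 overlap.

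In the edgeR quasi-likelihood fit over all genes, 6 of the 7 members were called lower and 0 higher at an adjusted p below 0.05. The same threshold called 41.4% of the 14766 tested genes, 22.6% lower and 18.9% higher. JUN, FOS, FOSL1 and FOSB were called and at least 2-fold lower, as were 2.4% of tested genes. Libraries of the groups did not overlap for 6 members and for 50.1% of tested genes. Since the family was chosen on this contrast, nothing is read from these counts. With total-count scaling the split of all calls turned from 3332 lower and 2785 higher to 2269 lower and 4449 higher, and with upper quartile factors to 2681 lower and 3742 higher, and the same 6 members were called lower under both. The log2 fold changes of the members ran from -2.77 to -2.64 for JUN over the 15 alternative settings, from -2.45 to -2.04 for FOS, from -2.14 to -2.04 for FOSL1, from -1.41 to -1.09 for FOSB, from -0.36 to -0.22 for JUNB and from -0.33 to -0.18 for JUND. FOSL2 ran from -0.05 to 0.07 and changed sign among them.

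**Figure D2:**
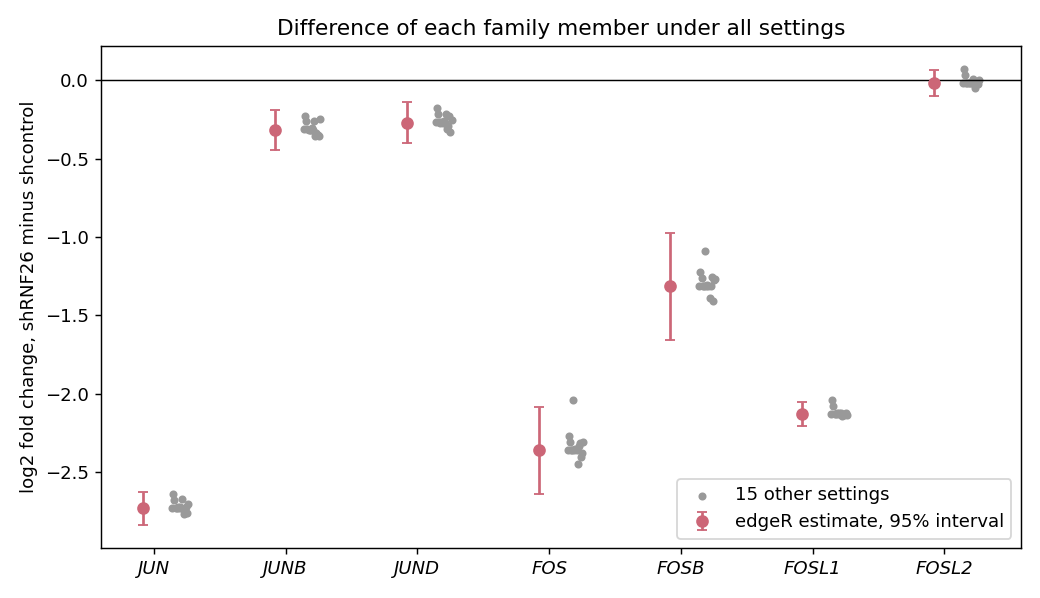
Log2 fold change of each family gene, shRNF26 minus shcontrol, as the edgeR estimate with its 95% interval (red) and under 15 other settings (grey points). The 4 genes at or below -1.32 stand apart from JUNB and JUND at -0.32 and -0.27 and from FOSL2 at -0.02 under every setting drawn.

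Ratios between members within a library do not depend on how libraries are scaled. JUN had 13.5 ± 0.198 times the counts of JUND in the shcontrol libraries and 2.45 ± 0.119 times in the shRNF26 libraries (mean ± SD, n = 3), and 6.33 ± 0.081 against 1.19 ± 0.070 times those of JUNB. JUNB and JUND kept nearly the same proportion to each other, 2.13 ± 0.011 against 2.07 ± 0.199. The count ratio of FOSL1 to FOSL2 was 2.05, 2.10 and 2.18 in the shcontrol libraries and 0.482, 0.477 and 0.501 in the shRNF26 libraries, so the order of these relatives by count reversed in all 3. FOS had 2.05 ± 0.065 times the counts of FOSB in the shcontrol libraries and 0.997 ± 0.072 times in the shRNF26 libraries. FOSL1 and FOS fell in similar proportion, with count ratios of 45.6 ± 5.34 and 53.5 ± 4.30, whose spreads overlap.

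The members also varied among replicates. Within the shcontrol group replicate 1 was the highest for JUN, JUNB, JUND, FOSL1 and FOSL2 and the lowest for FOS and FOSB. In the shRNF26 group replicate 2 was the highest for JUN, JUNB, JUND and FOSL2, and replicate 3 the lowest for JUN, JUNB, FOS, FOSB and FOSL2. These shifts were small beside the group differences of JUN, FOS, FOSB and FOSL1, but of the size of those of JUNB and JUND.

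To compare levels between genes, CPM was divided by the kilobases of merged exons in GENCODE 29. On this per-kilobase scale FOSL1 was the highest member in the shcontrol libraries at 375 ± 4.35, followed by JUN at 273 ± 20.1, JUNB at 84.0 ± 6.08, FOSL2 at 46.9 ± 1.82, JUND at 38.5 ± 2.58, FOS at 4.83 ± 0.484 and FOSB at 1.37 ± 0.126. FOSL1 lay above 99.7% and JUN above 99.5% of the 14595 tested genes with a length, whereas FOS lay above 46.7% and FOSB above 20.9%. In the shRNF26 libraries the order was FOSL1 at 85.6 ± 0.690, JUNB at 67.5 ± 5.84, FOSL2 at 46.4 ± 0.822, JUN at 41.1 ± 1.72, JUND at 31.9 ± 2.35, FOS at 0.937 ± 0.067 and FOSB at 0.550 ± 0.059. Neighbours in both orders were separated by more than the sum of their SDs. On this scale JUN thus moved from the second place to the fourth, and stood above 93.0% of genes in place of 99.5%. Both orders depend on the length used. With coding length JUN was the highest member in the shcontrol libraries and FOSL2 in the shRNF26 libraries.

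The summed per-kilobase level of the family was 863, 801 and 808 in the shcontrol libraries and 275, 282 and 265 in the shRNF26 libraries, or 33.3% of control. The JUN genes summed to 35.5% and the FOS genes to 31.2% of control, and the JUN genes made up 48.0 ± 1.47% of the family in the shcontrol and 51.3 ± 1.53% in the shRNF26 libraries. This near balance depends on the length used: with coding length the sums were 27.1% of control for the JUN genes and 44.0% for the FOS genes, and the share of the JUN genes was 49.0% and 37.1%. JUN went from 33.1 ± 1.06% to 15% ± 0.19 of the family sum and FOSL1 from 45.6 ± 1.34% to 31.3 ± 1.27%. JUNB went from 10.2 ± 0.319% to 24.6 ± 1.43%, JUND from 4.67 ± 0.123% to 11.7 ± 0.678% and FOSL2 from 5.70 ± 0.121% to 16.9 ± 0.278%, with larger shares of a smaller total. FOS and FOSB stayed below 1% of it in every library. The shares depend on the length used: with coding length FOSL2 made up 14.2% and 39.2%, JUN 40.1% and 16.9% and FOSL1 36.0% and 23.0%, so that JUN led in the shcontrol libraries and FOSL2 in the shRNF26 libraries. On that scale JUNB made up 6.05% and 13.6% and JUND 2.84% and 6.6%, and JUNB stood below JUN, FOSL1 and FOSL2 in both groups. Transcript levels do not give the amounts of AP-1 protein or of any dimer.

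**Figure D3:**
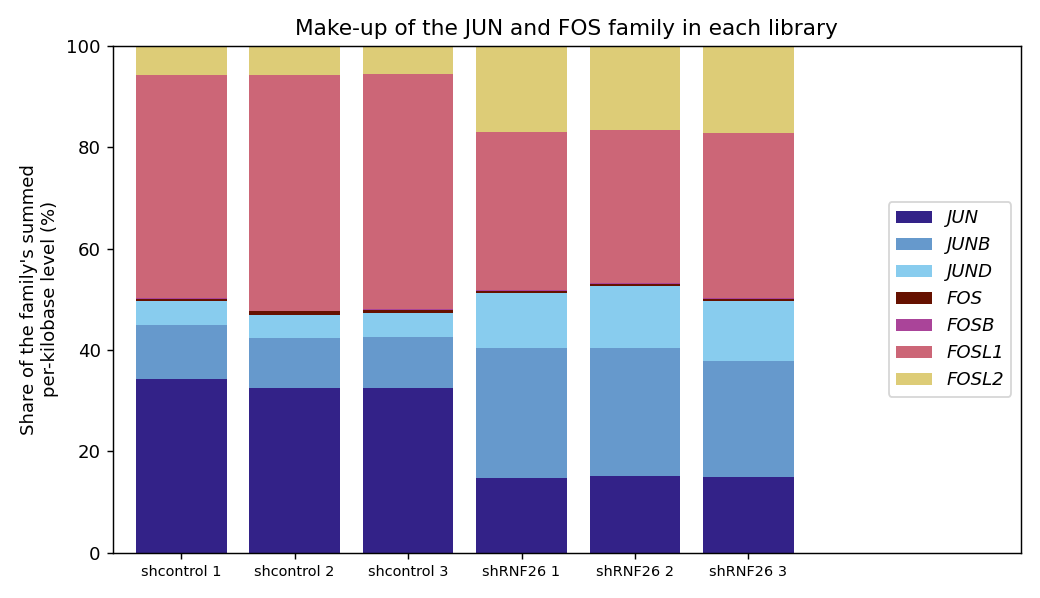
Stacked shares (%) of the 7 genes in the family's summed per-kilobase level, with 1 bar per library. JUN and FOSL1 fill 33.1% and 45.6% of the shcontrol bars on average, while JUNB, JUND and FOSL2 widen in the 3 shRNF26 bars.

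The JUN genes and the FOS genes differ in structure. In the principal transcripts of GENCODE 29, JUN, JUNB and JUND have 1 exon, as do 5.96% of protein-coding genes, and FOS, FOSB, FOSL1 and FOSL2 have 4. The pentamer ATTTA, the core of AU-rich elements that shorten the life of many immediate early transcripts, was counted on the sense strand of the 3′ untranslated region. FOS had 5 in 806 bases, or 6.20 per kilobase, above the 90th percentile of 4.93 over 18879 genes. JUNB had 2 (4.0 per kilobase), JUN 3 (2.33), FOSL2 9 in 4864 bases (1.85), FOSL1 1 (1.50), JUND 1 (1.47) and FOSB 3 (1.39), against a median of 1.41. The longer element TTATTTATT was found in FOS and FOSL2, and in 7.5% of genes. Whether these elements bear on the differences between the groups was not tested.

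Other leucine zipper proteins that pair with JUN or FOS included several that were lower. Of 8 listed and 6 tested, 4 were called lower and 1 higher, beside 22.6% and 18.9% of all tested genes. ATF2 was not called (log2 fold change -0.15, SE 0.084, edgeR adjusted p = 0.155), and the median was -0.81 against 0.01 over all tested genes. The stress-induced repressor and activator ATF3 fell from 64.1 ± 2.29 to 9.40 ± 0.886 CPM (-2.77 on the log2 scale, SE 0.078), close to the size of the JUN difference. ATF4, the main effector of the integrated stress response, fell by 0.99 on the log2 scale, JDP2, which can repress at AP-1 sites, fell 1.81-fold and BATF3 1.70-fold. ATF7 rose 1.28-fold. BATF had no count in any library and BATF2 lay below the filter. In the annotation ATF2, ATF7 and JDP2 share exon sequence with neighbours on the opposite strand. The same holds, among the genes named below, for MAPK10, MAP2K1, MAP3K1, ELK3, ELK4, MEF2A, MEF2C, CREB1, FBXW7, DDB1, RNF187, CUL4A, ELAVL1, HNRNPD, MMP1 and IL6. ATF2, ATF7, RPS6KA2, MRTFB, GSK3A, UBR4, KHSRP, TIA1 and SERPINB2 share exon sequence with a gene on their own strand. Counts of all these genes are uncertain to that extent.

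The kinases that convey signals to AP-1 lay near the middle of all genes. Of 23 listed and tested, 6 were called lower and 4 higher and 13 were not called, shares near the 22.6% and 18.9% of all tested genes, with a median of -0.04. The ERK gene MAPK3 (-0.04, SE 0.063, edgeR adjusted p = 0.664) did not pass. Of the JNK genes, MAPK8 fell by 0.23 on the log2 scale, MAPK9 did not pass (-0.06) and the low transcript MAPK10 rose 1.64-fold from 4.15 ± 0.461 CPM. The p38 activators went apart, MAP2K6 rising 1.76-fold and MAP2K3 falling 1.60-fold, and MAP3K5 and MAP3K1, which start JNK and p38 cascades, rose 1.27-fold and 1.24-fold. The ERK activator MAP2K1 fell 1.21-fold. MAP2K2 and RPS6KA2, the most abundant that did not pass, had -0.05 and 0.07. Counts give no phosphorylation, so they do not show how active these kinases were.

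Factors that act on the JUN and FOS promoters were also near the middle of all genes. Of 16 tested, 5 were called lower and 2 higher and 9 were not called, beside 22.6% and 18.9% of all tested genes, with a median of -0.08. The ternary complex factor ELK3 fell 1.53-fold, MEF2D 1.29-fold, ATF1 1.28-fold, MEF2A 1.25-fold and ELK4 1.15-fold, and the serum response cofactor MRTFB rose 1.36-fold. MEF2C rose 1.61-fold from 1.66 ± 0.398 CPM. SRF (-0.09), ELK1 (-0.12) and CREB1 (0.08), whose products bind the serum response element or the CRE, did not pass, nor did STAT3 (0.07) and SP1 (-0.06). The differences of these genes were far smaller than those of JUN, FOS and FOSL1.

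Ubiquitin ligase parts and kinases that set the turnover of JUN and FOS proteins were tested in 12 of 13 cases, with 3 called lower, 3 higher and 6 not called (median 0.03). These counts lie near the 22.6% and 18.9% called over all tested genes. FBXW7, the substrate receptor that marks phosphorylated JUN for degradation, fell 1.28-fold, the JUN ligase ITCH 1.27-fold and GSK3A 1.24-fold, while RNF187, which encodes a coactivator of JUN, rose 1.14-fold, the large ubiquitin ligase gene UBR4 1.10-fold and DDB1 1.08-fold. CUL4A (-0.06) and GSK3B (0.01) did not pass. Of 8 genes for proteins that bind AU-rich elements, 5 were called lower, 1 higher and 2 neither, beside 22.6% and 18.9% of all tested genes, with a median of -0.17. ZFP36, which promotes decay of such transcripts and is itself an immediate early gene, fell 6.63-fold, ZFP36L2 2.52-fold, KHSRP 1.16-fold and TIAL1 1.10-fold, and its relative ZFP36L1 fell by 0.96 on the log2 scale. TIA1 rose 1.27-fold, and HNRNPD (-0.10) and ELAVL1 (-0.10) did not pass.

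Genes with described AP-1 sites were lower in most cases. Of 26 listed, 23 were tested, with 20 called lower, 1 higher and 2 neither, against 22.6% of all tested genes called lower, and the median was -1.17. The list was drawn up with earlier results of these libraries known and is no independent sign of its direction. The plasminogen activator inhibitor SERPINB2 fell from 336 ± 12.4 to 30.4 ± 2.52 CPM (-3.47 on the log2 scale, SE 0.056). The growth factor HBEGF fell from 316 ± 10.3 to 62.5 ± 1.74 CPM (-2.34, SE 0.045) and EDN1 4.56-fold. The cytokine IL6 fell 13.1-fold (SE 0.195 on the log2 scale), from 10.4 ± 0.786 to 0.791 ± 0.176 CPM. It had only 13, 12 and 17 counts in the shRNF26 libraries, so its fold is imprecise. The collagenase gene MMP13 was the 1 of the list that rose, from 7.65 ± 0.670 to 12.5 ± 0.469 CPM, while its relatives MMP1 and MMP10 fell 2.33-fold and 1.78-fold. The gap junction gene GJA1 (-0.02, SE 0.043, edgeR adjusted p = 0.710) and the cornified envelope gene IVL (0.01, SE 0.21, adjusted p = 0.987) did not pass. IVL also stands on the squamous list, whose sum was lower in the shRNF26 libraries, and the part of that shift here was not tested. Binding of AP-1 was not measured in these data.

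**Figure D4:**
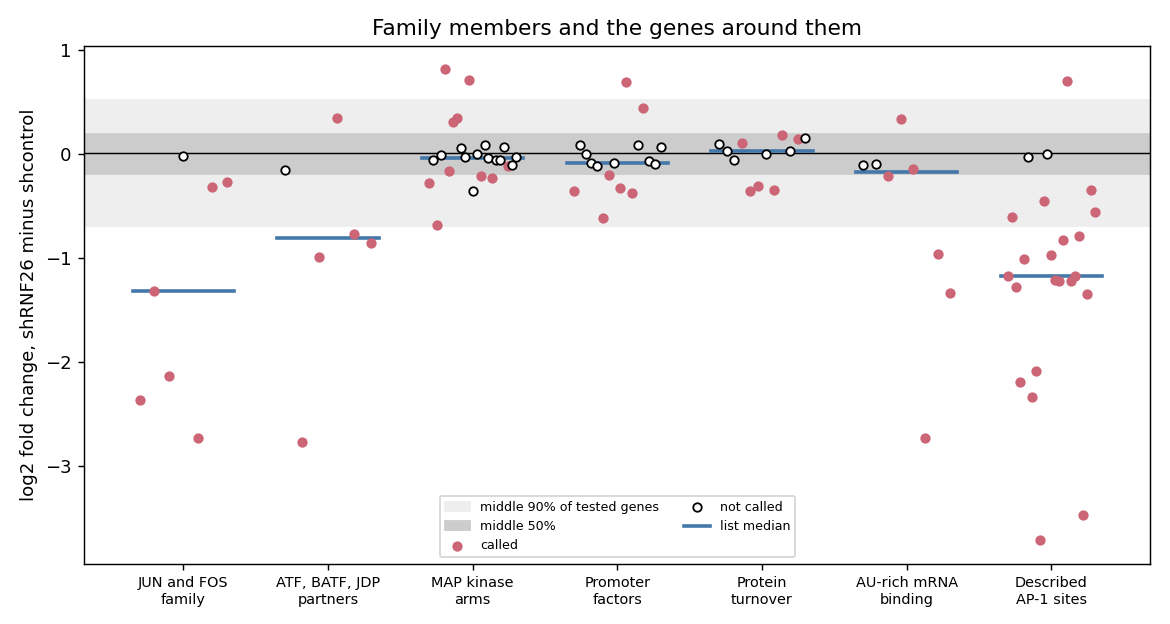
Log2 fold change, shRNF26 minus shcontrol, of the family and of 6 lists around it, with filled points for called genes, open points for genes not called and a blue line at each list's median. Shaded bands hold the middle 90% and 50% of all tested genes taken singly. The medians of the family (-1.32), the partners (-0.81) and the genes with described AP-1 sites (-1.17) lie below the wider band. That of the AU-rich binding list is -0.17, and those of the kinases, promoter factors and turnover genes lie near 0. The family and lists were chosen with earlier results of these data known, so the medians are descriptions.

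Over the 6 libraries the genes whose log2(CPM + 1) followed JUN most closely were LAMB3, a chain of laminin-332 (Pearson r = 0.9999), MPRIP (r = 0.9997) and SESN2 (r = 0.9996), and those that followed FOS were IFI44L (r = 0.9997), TFAP2C (r = 0.9995) and LRRFIP1 (r = 0.9994). LAMB3 fell from 1993 to 530 CPM. With 2 groups of libraries a correlation mostly restates the group difference: 1264 of 10013 genes with a mean of at least 10 CPM had r above 0.95 with JUN, and TFAP2C followed FOS with a log2 fold change of -0.27.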

How the data were processed

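RNA of 6 libraries was sequenced after preparation with a directional kit, per the labels' protocols. The authors deposited 1 table of raw gene counts: its values are whole numbers with unequal library totals, whereas its name speaks of FPKM. The build was hg19, per the submitters' processing notes, and the sources used here do not give the aligner, counter, annotation or use of strand. Of the Ensembl IDs, 61369 took symbols from a names table and 159 from GENCODE 29, and 2 blank rows, with 0% of counts, were left out. Promoters came from RefSeq (GRCh38.p14), and lengths and transcripts from GENCODE 29.

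Genes with a mean of at least 1 CPM were tested (14766 genes, 99.7% of counts) with the edgeR 4.0.16 quasi-likelihood test in R 4.3.3 on TMM-scaled counts, shRNF26 against shcontrol, at a Benjamini-Hochberg adjusted p of 0.05. Standard errors were the log2 fold change divided by the square root of F. The scripts were tested on simulated data. Libraries of 1 group differed by more than counting noise (chi-square per degree of freedom 2.31 to 4.98) and were counted separately. DESeq2 1.42.0 and limma 3.58.1 were alternatives. The members and lists were chosen with earlier results of these data known. From each list, the rule for named genes took up to 4 called genes with the largest change and up to 2 abundant genes not called, and for JUN and FOS the 3 genes most correlated. TP63, TRIM29, KRT14, IVL (among the squamous markers), ATF1, ELK1, ELK4, CREB1, SRF and MEF2A were named for their role after their values were seen. The same holds for KHSRP, TIAL1, DDB1, UBR4, MAPK3, MAPK8, MAPK9, MAP2K1, MAP3K1, MMP1, MMP10, HOOK2 and the absent markers. ATF7, MMP13, BATF and BATF2 were also named outside the rule after their values were seen.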

Additional observations from a re-analysis of the deposited data

How the results depend on the processing

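The calls of the 7 members were the same under all 15 alternatives, with 6 called lower in each. The sign of FOSL2 changed: its log2 fold change was 0.075 with total counts only and 0.0375 with upper quartile factors, and from -0.0458 to 0.0108 when each library was left out in turn, including 0.0108 without shcontrol replicate 1 and 0.00019 without shRNF26 replicate 3. Over all genes, 6117 were called; leaving out each library gave 4975 to 5804, the DESeq2 Wald test 5330, total counts 6718 and upper quartile factors 6423. With the replicate block 6414 genes and 6 members were called, but the deviations of libraries with the same number correlated at 0.011, -0.027 and 0.093, so the numbers were not taken as pairing the libraries. Family shares moved with gene length; both other lengths (GENCODE coding length and 1 principal transcript) were chosen after seeing the data, and the planned coding length from RefSeq proteins was not run. With the principal transcript FOSL1 made up 48.3% and 33.5% and JUN 31.0% and 14.2% of the family in the shcontrol and shRNF26 libraries, and the JUN and FOS genes summed to 35.5% and 30.7% of control. FOS and FOSB rest on 48 to 275 counts per library, so their values are the least precise. Scaling by total counts raises every log2 fold change by about 0.091, so small falls shrink and small rises grow. The calls of the list genes were not recomputed under it. Calls of small falls, such as TIAL1 and ELK4, should be read with that limit. So should small rises that were not called, such as RPS6KA2 (0.07).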
